A study of Mus musculus with 72 samples.

Results

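The bone marrow of 4 mouse pups at the age of weaning (17 to 21 days) was compared with that of 5 adolescent mice (33 to 44 days). These 9 mice are 9 of the 36 mice of the study, and 18 of its 72 array samples. They were chosen by their labelled age, as all the mice of the youngest age class, split at the gap between 21 and 33 days. Earlier results of these data were known when this choice was made. The pups were females of 17, 19 and 21 days and a male of 17 days. The adolescents were females of 33 and 40 days and males of 40, 43 and 44 days. Each mouse was a separate C57BL/6 animal, an inbred laboratory strain, and was fed freely, as were all the other mice of the series. The adults used beside them were of both sexes. They were 10 mice of 169 to 194 days, 10 of 476 to 499 days and 5 of 714 to 743 days. Each mouse carries a running number in the labels, whose meaning the labels do not give, and mice are named here by it. The pups are mice 2, 16, 30 and 42, and the adolescents are mice 1, 15, 43, 56 and 57.

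Between weaning and puberty the long bones of a mouse grow quickly, and their marrow makes red cells, granulocytes and B cells. Growth slows in adolescence, imprinted growth genes are turned down in many organs, and sex steroids begin to act on marrow and bone. The comparison asked which of these gene groups differ between the 2 ages within a class that the series treats as 1.

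Total RNA of each mouse was hybridised to 2 cDNA arrays, array A and array B, on which each spot is a cloned cDNA. A value is a z-score: the clones of 1 array in 1 mouse have a mean of 0 and a standard deviation of 1. A difference of 1 therefore equals 1 SD of the clones, no fold change can be given, and a level is relative to the other clones of that array. The value of a gene is the mean of its clones on the array with more of them, which gave 7151 genes, 3776 from array A and 3375 from array B, and 5293 of them rest on 1 clone. In bulk marrow, fewer cells of a type and less RNA per cell cannot be told apart.

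Haemoglobin was looked at first, as a marker of red cells, which cannot tell marrow from other tissue that holds blood. The 21 clones named as haemoglobin genes had mean scores of 1.47 to 2.94 and lay at or above percentile 93.2 of their array. The sex of the young mice could not be checked with these clones. Xist, the RNA that silences an X chromosome in females, lay between -1.37 and -1.03 in the 5 females and between -1.64 and -1.26 in the 4 males, so the sexes overlapped. Eif2s3y, a Y-linked gene, read -0.44 in female mouse 2 and -0.55 in male mouse 42. Values under a gene name are those of its clones, and for these names they did not follow sex.

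Arrays of 2 of the 9 mice stood apart. On array A, mouse 1 (an adolescent) correlated with the mean of the other mice at r = 0.8389 across clones and mouse 2 (a pup) at 0.9275. The other 7 young mice lay between 0.9687 and 0.9907 there, and the lowest adult at 0.9525. In mice 1 and 2, the dimmest eighth of the clones of array A lay above their mean over the 34 mice used in the fits. The excess was 0.466 in mouse 1 and 0.264 in mouse 2. On array B mouse 1 was again the lowest, at r = 0.9622. The other young mice lay between 0.9788 and 0.9932 there, with mouse 2 at 0.9888, and the lowest adult at 0.9687. One of the 2 mice is an adolescent and the other a pup, so both enter the comparison. The differences of named genes and the list medians are given with all 9 mice, and also without this pair.

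**Figure D1:**
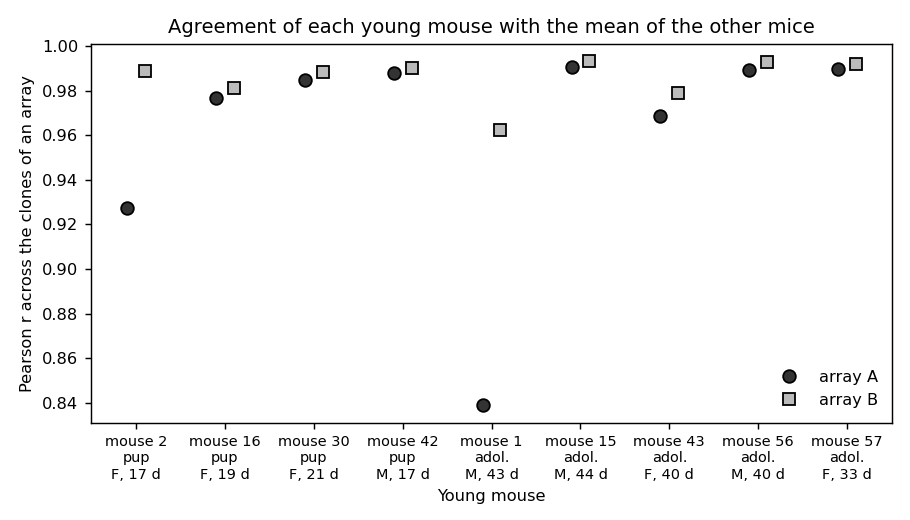
Pearson correlation across the clones of an array between each of the 9 young mice and the mean of the other mice (y axis), for array A (circles) and array B (squares), with pups on the left and adolescents on the right. Mouse 1 at 0.8389 and mouse 2 at 0.9275 on array A lie below the others.

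No gene differed between the 2 ages past the threshold (limma, Benjamini-Hochberg adjusted p under 0.05): 0 of 7151, or 0%, with a lowest adjusted p of 1. At an unadjusted p under 0.05 there were 156 genes (2.18%), 87 higher and 69 lower in adolescents. If no gene differed, a share of 0.05 of the genes would reach this level on average, and 2.18% lies below that. These genes are therefore not an excess. Without mice 1 and 2 there were 51 and again none passed. Leaving out 1 mouse moved this count from 105 (without mouse 2) to 263 (without mouse 15) and 264 (without mouse 16), and in no case did a gene pass.

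The differences were small beside their error. Adolescents were higher for 3637 genes and lower for 3514, with a median difference of 0.0017. The absolute difference had a median of 0.0582 and a 95th percentile of 0.2269, against a median standard error (SE) of 0.107. For 6401 genes (89.5%) the 95% interval of the difference lay within 0.5 SD units of 0, and without mice 1 and 2 for 6549 (91.6%). For most genes, then, these mice set a limit to the size of a difference, and for the rest even 0.5 was within reach of the error.

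Of the 156 genes, 110 came from array A and 46 from array B. The median absolute difference on array A was 0.0794, and 0.0582 without mice 1 and 2. On array B it was 0.0441 and 0.0468. Array A, on which both of these mice stood apart, thus held the larger differences, with the pair and without it. Its median difference shrank when both were left out, and that of array B did not. The median SE was also larger on array A, at 0.1217 against 0.0949 on array B. What made the differences on array A larger was not tested. Across genes, which are not independent, the difference with and without the pair correlated at r = 0.6175, and 5102 of 7151 genes kept their sign. For 963 genes both arrays carried clones, and their differences by array A and by array B correlated at r = -0.0101 and had the same sign for 495 genes (51.4%). The 2 arrays did not give the same order of genes, and without mice 1 and 2 the share was 49.6%.

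**Figure D2:**
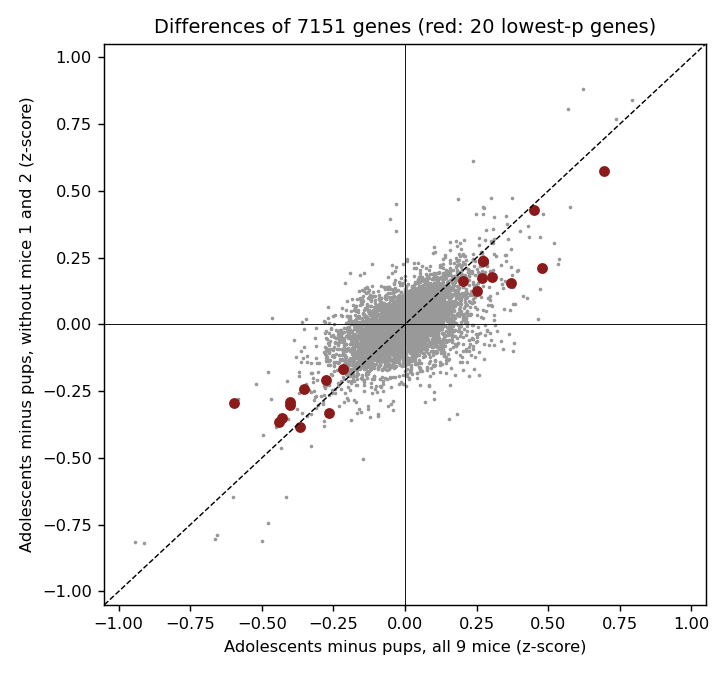
Difference between adolescents and pups for each of 7151 genes (gray) with all 9 mice (x axis) and without mice 1 and 2 (y axis), both as z-scores, with the line of equality dashed and the 20 genes of lowest p in red. All 20 lie on the same side of 0 on both axes, and 18 of them lie closer to 0 without the 2 mice. The 20 were chosen by the fit on the x axis, which shares all other mice with the y axis.

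Mice of the same age did not correlate more closely than mice of different ages. After the gene means of the 34 mice used in the fits were taken out, the 6 pairs of pups correlated at -0.2316 to -0.0217 across genes. The 10 pairs of adolescents lay between -0.2535 and 0.3017, and the 20 mixed pairs between -0.2443 and 0.4934. With mice 1 and 2 left out the ranges were -0.2316 to -0.0217 for 3 pairs of pups, -0.0461 to 0.3017 for 6 pairs of adolescents and -0.2443 to 0.4934 for 12 mixed pairs. The highest of all 36 pairs joined pup 16 (female, 19 days) and adolescent 43 (female, 40 days). The median SD of a gene within a group was 0.1402 in the 4 pups and 0.1551 in the 5 adolescents. Without mouse 2 it was 0.1172 in pups, and without mouse 1 it was 0.0989 in adolescents. In the 10 adults of 169 to 194 days it was 0.1491.

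Since no gene passed, the 10 genes with the smallest p on each side are listed with their values, none of them as a change. All 20 had mean scores below 0, while 2963 of all 7151 genes had a mean above 0. Of the 20, 17 rest on 1 clone in all, against 5293 of the 7151. From array A came 13 of the 20, against 3776 of the 7151. All 20 kept their direction without mice 1 and 2, as did 5102 of all 7151 genes. In that fit 11 of the 20 had an unadjusted p under 0.05 (limma), against 51 of all genes. The 20 were chosen in a fit that shares all the other mice, so the repeat is not an independent check. Mouse 1 was the most extreme adolescent for 11 of the 20, and mouse 2 the most extreme pup for 11.

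Among genes with a lower mean in adolescents, E4f1, a zinc-finger regulator of cell division and p53, had the lowest p. Its scores were 0.21, 0.35, -0.17 and -0.27 in pups 2, 16, 30 and 42, and -0.52, -0.41, -0.45, -0.24 and -0.49 in adolescents 1, 15, 43, 56 and 57. Pups 2 and 16 were high, while pup 42 lay among the adolescents. The difference was -0.439 ± 0.113 (SE; limma, unadjusted p = 0.00046, adjusted p = 1), and -0.364 without mice 1 and 2.

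Gabra3, a subunit of the GABA-A receptor, had scores of -1.67, -1.5, -1.78 and -1.88 in the pups and -2.43, -2.07, -2.03, -2.01 and -2.17 in the adolescents. The groups did not overlap, with mouse 1 lowest. The difference was -0.428 ± 0.123 (limma, adjusted p = 1) and -0.35 without mice 1 and 2.

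Snx1, a sorting nexin of the endosomal retromer, read -1.27, -1.51, -1.23 and -1.37 in the pups and -2.1, -1.63, -1.77, -1.62 and -1.61 in the adolescents, again without overlap and with mouse 1 lowest. Its difference was -0.4 ± 0.141 (limma, adjusted p = 1) and -0.291 without the pair. Hsf5, a relative of the heat shock factors, differed by -0.354 ± 0.132 and by -0.241 without the pair, where adolescent 1 at -1.71 was far below the other adolescents (-1.2 to -1.12) and the pups lay between -1.03 and -0.84.

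Psap encodes prosaposin, the precursor of the saposins that help lysosomal enzymes to break down sphingolipids, and is abundant in macrophages. Its scores were -0.91, -0.52, -0.66 and -0.61 in the pups and -0.8, -0.76, -0.93, -0.95 and -0.98 in the adolescents. Only pup 2 lay in the adolescent range, and without mice 1 and 2 the groups did not overlap. The difference was -0.265 ± 0.0923 (limma, adjusted p = 1) and -0.333 ± 0.101 without the pair.

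The other 5 genes with a lower mean in adolescents act in transcription, RNA handling, ubiquitin transfer and mitochondria. Ubac1, a subunit of a ubiquitin ligase, differed by -0.597 ± 0.176, with pup 2 at -0.54 and the other pups between -1.58 and -1.21. Without mice 1 and 2 this came to -0.294. Htatsf1, a splicing and elongation factor, differed by -0.403 ± 0.134, and Rbmx, an RNA-binding protein of the spliceosome, by -0.275 ± 0.0997. Without the pair these were -0.3 and -0.208. Med23, a Mediator subunit, differed by -0.218 ± 0.0756 (-0.167 without the pair) and Coa5, an assembly factor of cytochrome c oxidase, by -0.368 ± 0.128 (-0.385). For Rbmx a second clone on array B gave -0.00574 ± 0.0963.

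Among genes with a higher mean in adolescents, Polr2e, a subunit shared by the RNA polymerases, had the largest difference. It read -1.23, -0.96, -1.44 and -1.37 in the pups and -0.01, -1.12, -0.05, -0.81 and -0.77 in the adolescents. Adolescents 1 and 43 were high, and adolescent 15 lay among the pups. The difference was 0.694 ± 0.2 (limma, unadjusted p = 0.00151, adjusted p = 1) and 0.573 without mice 1 and 2.

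The RIKEN gene 2210406O10Rik was the only one of these 10 whose groups did not overlap. It read -0.85, -0.73, -0.8 and -0.69 in the pups and -0.48, -0.47, -0.62, -0.49 and -0.44 in the adolescents, a difference of 0.273 ± 0.096 and of 0.239 without the pair. Tcl1b1, of the Tcl1 family of Akt coactivators, differed by 0.273 ± 0.0786 and by 0.237 without the pair, and then without overlap. D5Ertd605e differed by 0.449 ± 0.154 and by 0.428 without the pair, with adolescent 43 at -0.22 and the other adolescents between -0.64 and -0.6.

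The other 6 were also nearer to 0 without mice 1 and 2, as were Polr2e, 2210406O10Rik, Tcl1b1 and D5Ertd605e. H1f8, the linker histone of oocytes, differed by 0.478 ± 0.138 and by 0.21 without the pair, with pup 2 at -1.87. Ttc37, part of the superkiller complex that feeds RNA to the exosome, differed by 0.369 ± 0.112 and by 0.155 without the pair. Pup 2 read -0.96 for Ttc37 and the other pups between -0.26 and -0.22. D730003I15Rik differed by 0.304 ± 0.0869 and by 0.178 without the pair, and Mmd2, a membrane receptor relative, by 0.252 ± 0.0909 and 0.126. Dnah7c, an axonemal dynein heavy chain, differed by 0.269 ± 0.0947 and by 0.173 without the pair. Cxadr, a cell junction protein used by viruses as a receptor, differed by 0.203 ± 0.0668 on array B (0.161 without the pair) and by -0.157 ± 0.133 by its clone on array A.

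**Figure D3:**
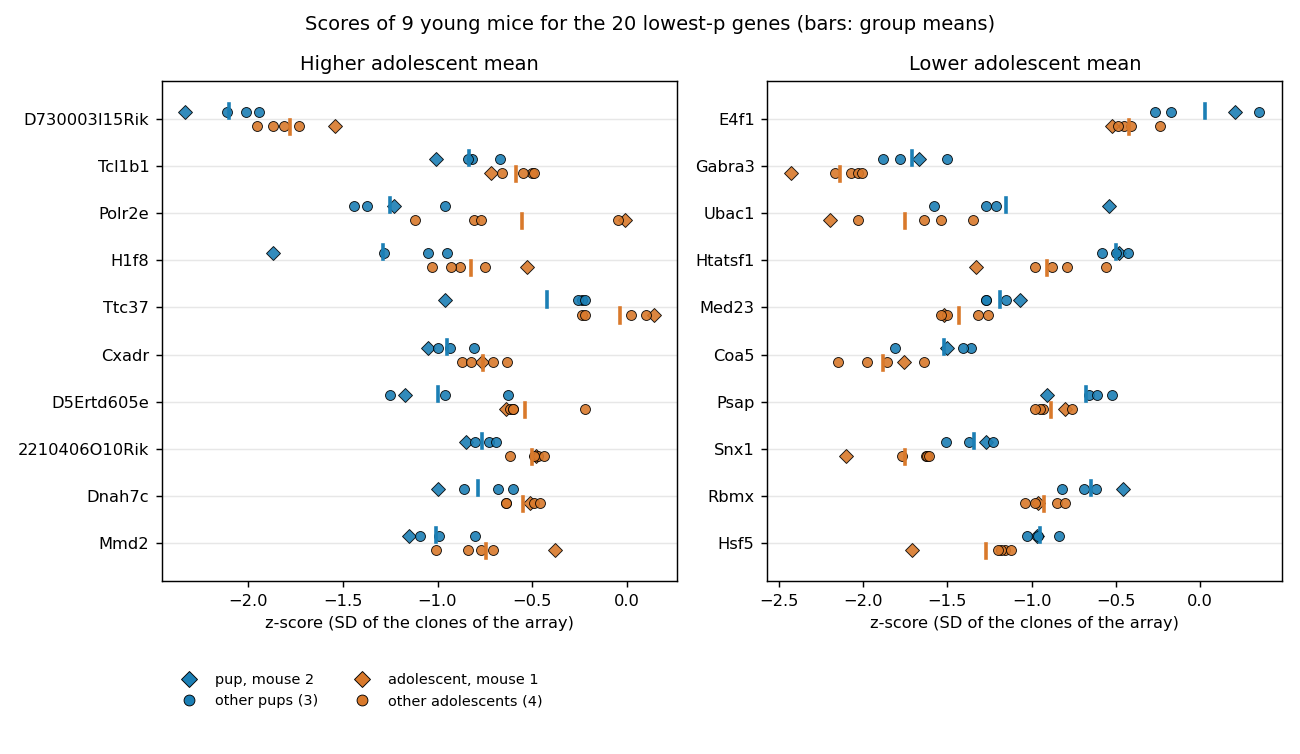
Z-scores of each young mouse (x axis) for the 20 genes of lowest p, with pups in blue above and adolescents in orange below, group means as bars, and mice 1 and 2 as diamonds. Gabra3, Snx1, Hsf5 and 2210406O10Rik are the 4 whose groups do not overlap.

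Of all genes, 31 (0.434%) had no overlap between the 4 pups and the 5 adolescents, 11 higher and 20 lower in adolescents. Leaving out mice 1 and 2, with fewer mice to overlap, gave 170, of which 72 were higher and 98 lower. Groups this small separate completely for some genes by chance, and the share that chance would give was not set beside these counts. A lack of overlap, here or for any single gene in this report, therefore does not mark that gene as changed. The 31 included Hif1a, the oxygen-sensitive transcription factor, with scores from -0.91 to -0.34 in pups and from -1.3 to -0.93 in adolescents. Spry4, an inhibitor of growth factor signalling, lay between -1.47 and -1.22 in pups and between -1.21 and -0.79 in adolescents. Each of these differences had an adjusted p of 1 (limma), and Hif1a and Spry4 were picked from the 31 after their values were seen.

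Marrow lineages are given next by lists of known genes, each described by its counts and its median difference beside those of all genes (3637 higher, 3514 lower, median 0.0017). In each of the lists 0 measured genes passed in either direction, against 0% of all genes.

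Genes of red cells and haem synthesis did not lean to an age. Of 17 measured, 9 were higher and 8 lower in adolescents, with a median difference of 0.0229 (10 higher, 7 lower and 0.0317 without the pair). The 21 haemoglobin clones had differences from -0.0777 to 0.0629, 13 of them above 0 and 8 below, around levels among the highest of the array. Ppox, the enzyme that makes protoporphyrin, read -0.68, -0.76, -0.66 and -0.46 in the pups and -0.89, -0.83, -0.88, -0.82 and -0.97 in the adolescents. The groups did not overlap, and the difference was -0.257 ± 0.123, the same without mice 1 and 2 (-0.257). Abcb10, a mitochondrial transporter of red cell precursors, differed by 0.264 ± 0.124 and by 0.103 without the pair, with adolescent 1 at 0.16 against -0.42 to -0.31 in the other adolescents, and by -0.0422 ± 0.0793 by its clone on array B. Gata1, the master regulator of red cell genes, differed by -0.111 ± 0.0825, and Slc4a1, the band 3 anion exchanger, by -0.0879 ± 0.0927. Without the pair these were -0.0908 and -0.0999.

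Of 9 genes of iron handling, 4 were higher and 5 lower, with a median of -0.0165, and without the pair 5 were higher and 4 lower, with a median of 0.0021. Ftl1, the light chain of ferritin, differed by -0.229 ± 0.18 and by -0.0678 without the pair, since adolescent 1 read -0.234 against 0.402 to 0.59 in the other adolescents. Tfrc, the transferrin receptor, differed by -0.101 ± 0.0875, and by 0.0208 without the pair, with -0.322 ± 0.218 by its clone on array B. The iron-regulatory proteins Ireb2 (0.0969 ± 0.098) and Aco1 (0.0981 ± 0.113) were within 1 SE of 0, and came to 0.0719 and 0.0736 without the pair.

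Neutrophil genes lay lower in adolescents for 7 of the 9 measured, with a median difference of -0.0333 (-0.0233 without mice 1 and 2, again 7 of 9). S100a9, a calcium-binding protein that fills neutrophil cytoplasm, read 1.07, 1.34, 1.0 and 0.93 in the pups and 0.5, 0.83, 0.87, 0.97 and 0.88 in the adolescents. Pup 16 was highest and adolescent 1 lowest, and the groups overlapped at pup 42 and adolescent 56. The difference was -0.345 ± 0.158 (limma, unadjusted p = 0.0365, adjusted p = 1) and -0.241 ± 0.171 without the pair. Lcn2, the iron-binding protein lipocalin of granules, differed by -0.411 ± 0.207 and by -0.21 without the pair, with adolescent 1 at -1.0. Lyz2, lysozyme, differed by -0.156 ± 0.177 and by 0.0957 without the pair, and Csf3r, the receptor for the granulocyte growth factor, by -0.0403 ± 0.114 and by -0.07 without the pair. In adolescent 1 the median of the 9 neutrophil genes was 0.38, against 0.83 to 0.95 in the other adolescents and 0.865 to 1.02 in the pups. What set this mouse apart was not tested.

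The list of monocyte, macrophage and antigen presentation genes had 8 higher and 10 lower of 18, with a median of -0.0209 (6 higher, 12 lower and -0.0216 without the pair). Besides Psap, Cd74, the invariant chain of class II histocompatibility molecules, read -0.19, -0.07, 0.01 and -0.01 in the pups and -0.45, -0.13, -0.23, -0.05 and -0.24 in the adolescents. The groups overlapped, and the difference was -0.167 ± 0.0804 (-0.146 without the pair). The lysosomal proteases Lgmn (0.216 ± 0.146) and Ctsl (-0.171 ± 0.12) differed in opposite directions. Both came to within 0.1 of 0 without the pair (0.0442 and -0.0705).

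B lineage genes were lower for 6 of 9, with a median of -0.0469, and for 7 of 9 without mice 1 and 2 (median -0.0628). Ighm, the heavy chain of immunoglobulin M, read 0.44, 0.59, 0.35 and 0.29 in the pups and 0.55, 0.01, 0.05, 0.22 and 0.17 in the adolescents. Adolescent 1 was among the pups and the other 4 below them. The difference was -0.212 ± 0.17 and -0.291 without the pair (limma, adjusted p = 1 for both). Cd24a, a surface protein of B cell precursors, differed by -0.248 ± 0.126, and Cecr2, a chromatin reader that is no marker of the lineage, by -0.168 ± 0.112. Without the pair these were -0.174 and -0.203. Blnk, the B cell linker protein, differed by 0.107 ± 0.157, and by -0.0683 without the pair. Few genes of other lineages were measured: 1 of T and NK cells, 2 of megakaryocytes and 2 of mast cells, basophils and eosinophils, and none of them passed.

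Of 7 genes of stem and progenitor cells, 4 were higher and 3 lower, with a median of 0.0507 (5 higher, 2 lower and 0.0447 without the pair). Slamf1, the CD150 antigen of stem cells, read -1.19, -0.97, -0.99 and -1.13 in the pups and -0.64, -1.08, -0.87, -0.72 and -0.72 in the adolescents. All but 1 of the adolescents were above each pup, and adolescent 15 lay among the pups. The difference was 0.266 ± 0.113 (limma, unadjusted p = 0.0256, adjusted p = 1) and 0.186 without the pair. Gata2 (-0.134 ± 0.128) and Meis1 (0.11 ± 0.142), transcription factors of stem cells, and Procr (0.0507 ± 0.0696), the protein C receptor, were within 2 SE of 0. Without the pair they came to -0.106, 0.0984 and 0.0447.

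Bone genes were lower for 8 of 12, with a median of -0.0216, and for 6 of 12 without the pair (median 0.0089). Sparc, a collagen-binding protein of bone matrix also called osteonectin, read -0.143, -0.177, -0.107 and -0.203 in the pups and -0.277, -0.27, -0.367, -0.41 and -0.347 in the adolescents. The groups did not overlap, and the difference was -0.192 ± 0.0778 (limma, unadjusted p = 0.0191, adjusted p = 1) and -0.193 ± 0.0887 without mice 1 and 2. Its clone on array B gave -0.102 ± 0.0689. Col1a2, a chain of type I collagen, read 0.63, 0.405, 0.68 and 0.72 in the pups and 0.325, 0.455, 0.46, 0.395 and 0.495 in the adolescents. Only pup 16 lay among the adolescents, and the difference was -0.184 ± 0.0766 (-0.152 without the pair). The osteoclast genes Acp5 (-0.0827 ± 0.0964), the tartrate-resistant phosphatase, and Car2 (0.0616 ± 0.071), a carbonic anhydrase that red cells also express, were within 1 SE of 0, and came to -0.126 and 0.0387 without the pair. The clone of Car2 on array B gave -0.249 ± 0.137.

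Stromal and matrix genes were higher for 13 of 19, with a median of 0.0109, and again for 13 of 19 without the pair (median 0.0351). Timp3, an inhibitor of matrix proteases, differed by -0.451 ± 0.207 on array A (-0.386 without the pair) and by 0.258 ± 0.241 by its clone on array B, so the direction was not shared by its clones. Col5a1 (0.145 ± 0.0971), Col4a2 (0.16 ± 0.11) and Timp2 (-0.139 ± 0.106) were within 2 SE of 0. Without the pair they came to 0.134, 0.0868 and -0.0283. Cartilage genes (3 of 4 higher, median 0.0222, and 2 of 4 with -0.031 without the pair) and endothelial genes (3 of 5 lower, median -0.1539, and -0.0105 without the pair) were few.

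Of 14 imprinted genes, which are known for being turned down as growth slows, 9 were higher in adolescents and 5 lower, with a median of 0.0357. Without mice 1 and 2, 6 were higher and 8 lower, with a median of -0.0228. Meg3, a maternally expressed non-coding RNA, read -0.54, -0.56, -0.56 and -0.54 in the pups and -0.35, -0.41, -0.52, -0.48 and -0.53 in the adolescents. The groups did not overlap, by a gap as small as 0.01, and the difference was 0.0991 ± 0.0634 (0.073 without the pair). Grb10, an imprinted inhibitor of insulin receptor signalling, differed by -0.227 ± 0.142, Slc38a4, an amino acid transporter, by 0.269 ± 0.183, and Peg3, a zinc-finger gene, by 0.057 ± 0.062. Without the pair all 3 were nearer to 0, at -0.131, 0.163 and 0.00724. Genes of the growth hormone and IGF axis were higher for 5 of 8 (median 0.027). Genes of the response to sex steroids and glucocorticoids were lower for 4 of 6 (median -0.0413). In both lists 0 members had an unadjusted p under 0.05 (limma), against 2.18% of all genes, so these few genes say little. Without the pair, 4 of 8 were higher (median 0.0002) and 5 of 6 lower (median -0.0921).

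Genes of the cell cycle were split evenly, 33 higher and 37 lower of 70, with a median of -0.004 (36 higher, 34 lower and 0.0025 without the pair). Slbp, which binds the stem-loop of histone messengers in S phase, read -0.67, -0.88, -0.73 and -0.74 in the pups and -1.0, -0.82, -1.01, -1.25 and -1.12 in the adolescents. Adolescent 15 lay in the pup range and the other 4 below it. The difference was -0.283 ± 0.109 on array A (limma, unadjusted p = 0.0137, adjusted p = 1), -0.266 without the pair, and -0.0034 ± 0.114 by its clone on array B. Plk1, the mitotic polo-like kinase, differed by -0.371 ± 0.157 without overlap, but pup 2 at 0.04 stood above the other pups (-0.82 to -0.57), and without the pair the difference was -0.194. Ncaph, a condensin subunit, differed by -0.163 ± 0.0748 and by -0.155 without the pair. Dut, which clears dUTP, differed by 0.344 ± 0.17 and by 0.0574 without the pair.

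Ribosomal protein genes were mostly lower in adolescents. Of 65 genes, 52 were lower in adolescents and 13 higher, with a median difference of -0.0687, against 3514 lower and 3637 higher over all genes. The list medians of the pups were 0.095, 0.23, 0.17 and 0.06, and those of the adolescents were -0.1, 0.03, 0.165, 0.06 and 0.15. Adolescent 1 was the lowest, and the other 4 adolescents lay within or close to the pup range. Without mice 1 and 2, 45 were lower and 20 higher, with a median of -0.0281. Over the 140 clones, 109 were lower and 31 higher. None of the 65 genes had an unadjusted p under 0.05 (limma), against 156 of all 7151 genes (2.18%). At so low a share, 0 of 65 says little about the list. Rps26 differed by -0.273 ± 0.142, Rps29 by -0.126 ± 0.0694, Rpl13a by -0.223 ± 0.125 and Rpl8 by -0.274 ± 0.164, and without the pair these came to -0.211, -0.125, -0.212 and -0.0539. Second clones on array B gave 0.00485 ± 0.0887 for Rps26 and -0.011 ± 0.0863 for Rpl8. Ribosomal protein genes have many processed pseudogenes and near copies, so that clones under these names may share signal.

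Genes of glycolysis were higher for 11 of 17, with a median of 0.0216 (12 of 17 and 0.0186 without the pair). Ldhb, the lactate dehydrogenase of heart and red cells, read -1.07, -1.3, -1.15 and -1.63 in the pups and -0.98, -1.05, -1.13, -1.04 and -1.02 in the adolescents. The groups overlapped at pup 2 and adolescent 43, and the difference was 0.279 ± 0.115 (limma, unadjusted p = 0.0208, adjusted p = 1) and 0.317 without mice 1 and 2. Ldha, the muscle form, differed by -0.382 ± 0.208 and by -0.123 without the pair. Gapdh (-0.187 ± 0.143) and Aldoa (0.189 ± 0.154), both glycolytic enzymes, differed in opposite directions within 2 SE, and came to -0.0874 and 0.24 without the pair. Of the other process lists, oxidative phosphorylation had 35 of 66 higher (median 0.0096), the proteasome 21 of 38 (0.01), chaperones 13 of 32 (-0.0083), the interferon response 7 of 13 (0.0019), antioxidant genes 12 of 27 (-0.0113), immediate early genes 9 of 12 (0.0118), lipid synthesis 3 of 6 (0.0222), cholesterol synthesis 7 of 9 (0.048) and skeletal muscle 3 of 6 (0.0081). When mice 1 and 2 were left out, the counts higher and medians, in the same order, were 31 (-0.0072), 20 (0.0032), 12 (-0.0183), 5 (-0.0066), 14 (0.0239), 6 (-0.0105), 2 (-0.0333), 4 (-0.0004) and 5 (0.0598). The median changed sign for 6 of these 9 lists.

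**Figure D4:**
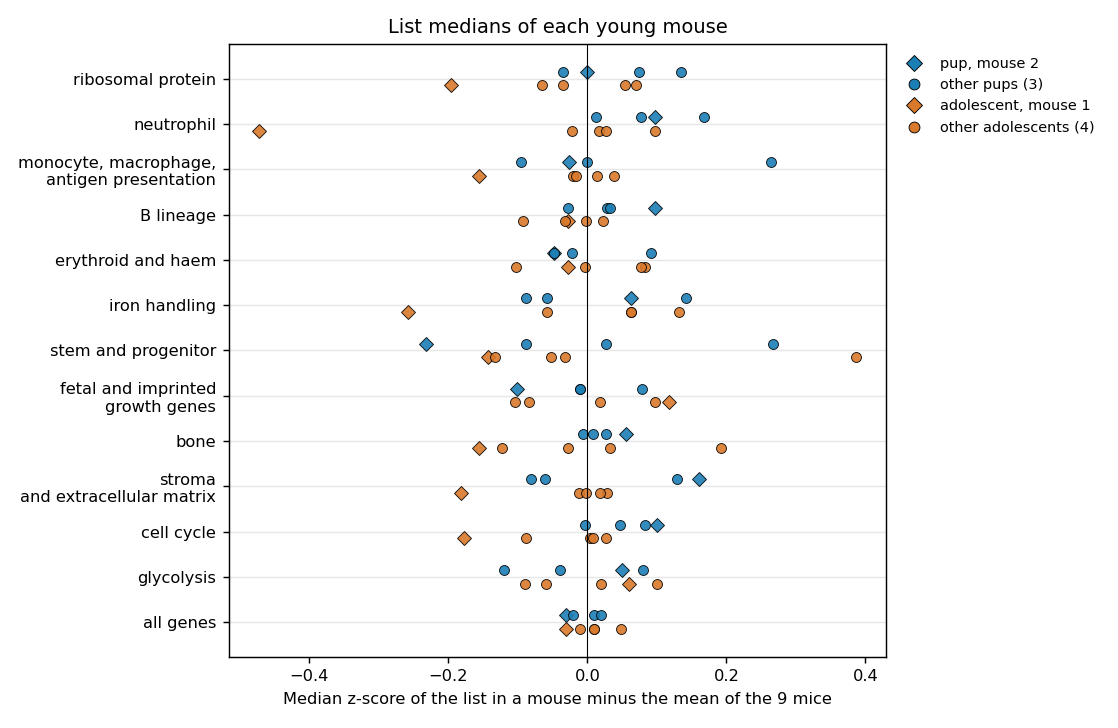
Median z-score of each gene list in each young mouse, minus the mean of the 9 mice (x axis), with pups in blue, adolescents in orange, and mice 1 and 2 as diamonds. Pups and adolescents overlap for every list shown, and adolescent 1 is the lowest mouse for ribosomal protein, neutrophil, monocyte, iron handling, bone, stroma and cell cycle genes.

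The adults of 169 to 194 days were compared with each of the young groups, in fits that share the young mice. Against adolescents the lowest adjusted p was 0.0571 (limma), so that 0 of 7151 genes (0%) were past the threshold. At an unadjusted p under 0.05 there were 329 (4.6%). Against pups the lowest adjusted p was 1 with 0% past the threshold, and 150 genes at the unadjusted level. Whether adults stand farther from adolescents than from pups was not tested.

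The gene of lowest p against adolescents was Psap. Its mean was -0.675 ± 0.167 (SD, n = 4) in pups and -0.884 ± 0.0976 (n = 5) in adolescents. In adults it was -0.506 ± 0.176 (n = 10) at 169 to 194 days and -0.415 ± 0.177 (n = 10) at 476 to 499 days. At 714 to 743 days it was -0.572 ± 0.0536 (n = 5). Of the 25 adults, 24 lay above the highest adolescent, and 1 of 169 to 194 days lay within the adolescent range. The adults of 169 to 194 days exceeded adolescents by 0.394 ± 0.0743 (limma, adjusted p = 0.0571) and pups by 0.129 ± 0.081 (adjusted p = 1). The first of these passed under 4 alternatives: weights for each mouse (adjusted p = 0.00349), a correction for position in the table (0.00318), without pup 2 (0.0394) and without pup 16 (0.0382). Under the other alternatives its adjusted p lay between 0.0514 and 0.79.

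Gabra3 had its lowest mean in adolescents too. The mean was -1.71 ± 0.163 (SD, n = 4) in pups and -2.14 ± 0.172 (n = 5) in adolescents. In adults it was -1.7 ± 0.231 (n = 10) at 169 to 194 days and -1.77 ± 0.12 (n = 10) at 476 to 499 days. At 714 to 743 days it was -1.8 ± 0.192 (n = 5). All 4 pups and 24 of the 25 adults lay above the highest adolescent. The adults of 169 to 194 days exceeded adolescents by 0.442 ± 0.0986 (limma, adjusted p = 0.313) and pups by 0.0144 ± 0.108 (adjusted p = 1). For both genes pups and adults of 169 to 194 days lay closer to each other than either to the adolescents, in values chosen for their low p.

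**Figure D5:**
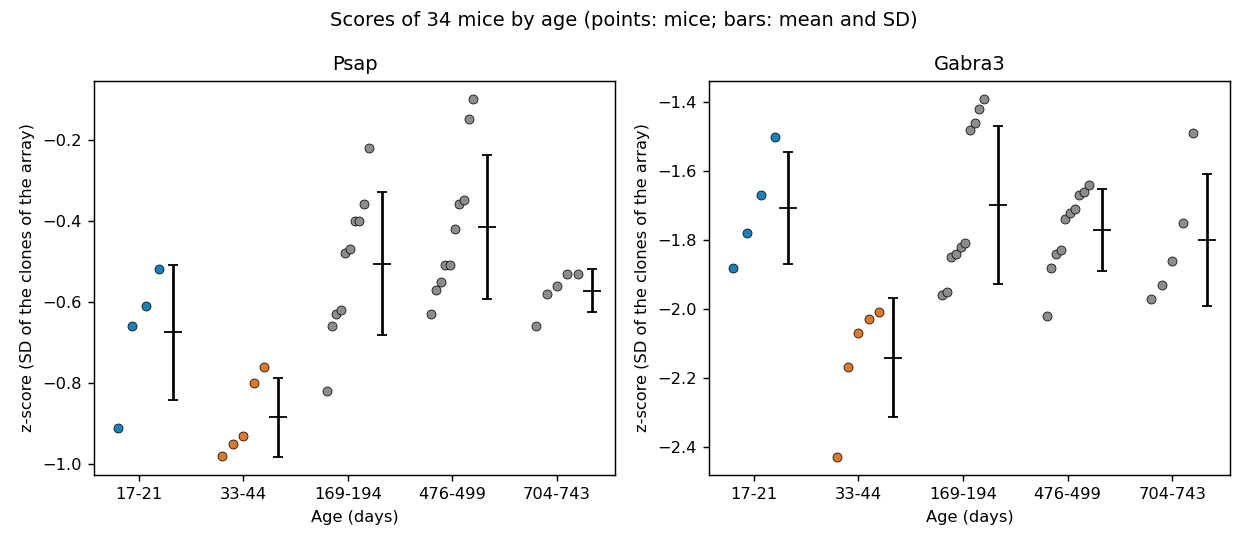
Z-scores of Psap (left) and Gabra3 (right) in 34 mice by age class (x axis, days), each point a mouse ordered by score within its class, with the mean and SD as bars. The adolescents of 33 to 44 days have the lowest mean for both genes, -0.884 and -2.14. The class labelled 704-743 shows its 5 fitted mice, of 714 to 743 days.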

How the data were processed

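The deposited values are scores, centred and scaled by the authors so that each array's 8448 clones have mean 0 and SD 1, as was checked in every column. RNA was labelled with radioactive dCTP, per the labels' protocols. Not given in the sources used here: scanner, background treatment, any log step. Clones were named by the platform annotation (9663 of 16896 with 1 gene), and 0 columns were unmapped. The members and gene lists were chosen with earlier results of these data known. limma 3.58.1 (lmFit, eBayes) in R 4.3.3 was fitted to 34 mice with age class and sex, and p-values were adjusted by Benjamini-Hochberg over 7151 genes. Mice 66 and 67 were left out, since their columns do not follow their tables' clone order. With under 5 genes passing, the 10 of lowest p per direction were named, and up to 4 list members of largest moderated t. The 12 lists with named examples were picked after values were seen. No array was repeated, so the spread holds array and animal together, and the number of mice limits precision. The fit was tested on simulated data with independent noise for each gene and planted changes larger than nearly all differences seen here. That test does not cover arrays that stand apart or differences of the size seen here.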

Additional observations from a re-analysis of the deposited data

Results flagged for a closer look

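In 22 of 194 groups of 4 or 5 young mice examined, the highest or lowest mouse lay far from the others (Dixon's ratio). For independent groups chance gives about 1 in 20. These groups are the same mice read over chosen genes and over lists that share genes, so they are not independent. Mouse 1 was the far mouse in 14 of the 22 and mouse 2 in 2. Among adolescents, mouse 1 was far below the others for the neutrophil list (median 0.38), the stroma list (0.06) and the skeletal muscle list (-0.46). It was the lowest adolescent for Hsf5 (-1.71), Ftl1 (-0.234), Gata2 (-1.22), Cd24a (-0.915), Lcn2 (-1.0), Lyz2 (0.19), Ctsl (-1.72) and Ldha (-1.52), and the highest for Abcb10 (0.16), Lgmn (0.24) and Dut (-0.23). Mouse 43 was the highest adolescent for D5Ertd605e (-0.22), Meis1 (0.02) and the stem and progenitor list (0.02), and the lowest for 2210406O10Rik (-0.62). Mouse 15 was the lowest adolescent for Col5a1 (-1.27). Among pups, mouse 2 was lowest for Ttc37 (-0.96) and Blnk (-1.17), and mouse 30 was highest for the list of sex steroid and glucocorticoid response (-0.373).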

How the results depend on the processing

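No gene passed between adolescents and pups under any of the 27 alternatives run, with lowest adjusted p from 0.31 (limma with weights for each mouse) to 1, and 0 passed between adults of 169 to 194 days and pups. Between adults of 169 to 194 days and adolescents, 1 gene passed, Psap, with weights for each mouse and with a position correction, and 0 to 1 passed when 1 mouse was left out. The 2 added alternatives, the 7 young mice alone and females without mouse 2, were chosen after seeing the data. Over all genes, 5102 of 7151 kept their sign without mice 1 and 2. Among the differences of genes named one by one in the report, 26 values had the other sign under an alternative. For adolescents minus pups, without mice 1 and 2, these were Tfrc (0.0208), Blnk (-0.0683) and Lyz2 (0.0957); with the 7 mice alone, Tfrc (0.0255), Peg3 (-0.00867), Blnk (-0.054) and Lyz2 (0.132); in females, Gata2 (0.147), Lyz2 (0.095) and Col4a2 (-0.0733), and without mouse 2, Lyz2 (0.15) and Col4a2 (-0.04). With weights Lyz2 came to 0.0915, by position Procr to -0.00838 and over both arrays Car2 to -0.0936. With 1 mouse left out, Gata2 ranged from -0.25 to 0.0078 (without mouse 1), Lyz2 from -0.253 to 0.0405 (without mouse 1), Meis1 from -0.00226 (without mouse 43) to 0.227, Csf3r from -0.0852 to 0.0302 (without mouse 43; 0.0194 without mouse 42) and Blnk from -0.0729 (without mouse 2) to 0.188. For adults minus pups, Psap came to -0.02 in females without mouse 2, and Gabra3 to -0.046 in females, -0.056 in females without mouse 2, -0.0108 without mouse 30 and, over the mice left out in turn, from -0.0495 (without mouse 42) to 0.0805. The cause of these was not tested. The median of the ribosomal protein list lay between -0.1013 and -0.005 over 25 alternatives. No paired analysis was possible because the labels give no replicate numbers shared by pups and adolescents. With a block for runs of the running number, the lowest adjusted p was 0.424. Depth is not known for these arrays, and dim clones have no detection call.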

Other observations

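The 7233 clones without a single gene name were fitted in the same way. For adolescents minus pups, 0 of them passed (limma, lowest adjusted p = 1), and 118 (1.63%) had an unadjusted p under 0.05, or 53 without mice 1 and 2.

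Without mice 1 and 2, the genes of lowest p were partly others. Echdc2, a mitochondrial enzyme relative, had a higher mean in adolescents by 0.354 ± 0.106 (limma, adjusted p = 1), with -1.28, -1.17 and -1.48 in pups 16, 30 and 42 and -0.91, -1.09, -0.9 and -0.99 in adolescents 15, 43, 56 and 57. With all 9 mice its difference was 0.281. Of the 20 genes named from all 9 mice, 7 were also among the 20 of lowest p without the pair.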
